A study of Mus musculus with 25 samples.

Results

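B16F10 luc2 and D4M are the most distant pair among the 5 murine melanoma cell lines of the study, and their transcriptomes were compared here. The comparison rested on 10 of 25 RNA-seq libraries, 5 biological replicates of each line, chosen by the cell line label. Libraries were made from total RNA of untreated cultured cells at a confluency of 50%. B16F10 luc2 is a purchased B16F10 line that carries luciferase, and the study lists many mutations for it, among them Trp53, whereas Braf, c-Kit and Nras are not mutated. D4M, the Dartmouth murine mutant malignant melanoma, came from mice whose engineered alleles include Tyr::CreER and BrafCA, in which an inducible Cre under the tyrosinase promoter switches on mutant Braf in pigment cells. Each is 1 established cell line, so that the replicates are cultures and not independent tumors. B16F10 luc2 was grown in RPMI medium and D4M in Advanced DMEM/F-12 with less fetal calf serum, and line and medium cannot be told apart. Gene-level counts do not show the Braf allele, and the luciferase transcript was not analysed here.

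Melanocytes make melanin in melanosomes, where tyrosinase and its relatives TYRP1 and DCT oxidize tyrosine on fibrils of PMEL. The transcription factor MITF, together with SOX10 and PAX3, is known to drive these genes. Melanoma cells can lose this program and take up a dedifferentiated state, which is known for AP-1 and mesenchymal transcription factors, growth factor receptors and a secreted matrix.

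The 10 libraries held between 24199083 and 25679885 estimated counts. Levels are given as CPM, counts per 1000000 of the TMM-scaled library total, and 3 counts, the floor used for folds against a silent line, corresponded to between 0.115 and 0.138 CPM. Over the 5000 most variable genes, the distance of B16F10 luc2 to D4M was 296.0, the largest of the 10 distances between lines. It was followed by 286.7 between D4M and RET. The pair was chosen because it is the most distant, so its rank is not a result. Of 15247 genes tested with limma, 77.7% differed at an adjusted p under 0.05, with 38.8% higher and 38.9% lower in B16F10 luc2. These shares are the background of every count of a gene list. D4M replicate 1 stood apart from its sister libraries in genes that the other D4M cultures hardly expressed. It held more counts of pigment genes, and named genes whose fold or call changed without it are given with and without it. The sum of 6 melanocytic markers lay between 13591 and 15962 CPM in B16F10 luc2 and between 6.50 and 32.6 CPM in D4M, so that the defining melanocytic transcripts were far lower in D4M, labelled as melanoma. None of the 6 was at or under 3 counts in all D4M libraries. Markers of immune, endothelial and epithelial cells were low, with sums of at most 16.7, 3.46 and 3.96 CPM over both lines. Ptprc, Cd3e and Adgre1 had at most 3 counts in every library.

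All 10 genes for pigment synthesis were higher in B16F10 luc2, against 38.8% of all tested genes that were higher. DESeq2's Wald test called 7 of them and gave no p-value for Tyrp1, Dct and Pmel. Their median log2 fold change (B16F10 luc2 minus D4M throughout) was 13.19, where the median of all tested genes was 0.00. For the 6 of these genes with an entry in the RefSeq promoter table (GRCm38.p6), the 250 bases before the transcription start are of interest, because MITF binds the M-box with the core TCATGTG and the shorter CATGTG inside it. Motifs were searched on both strands, and positions count back from the base before the start. The core TCATGTG was present in the promoters of Tyr, Tyrp1, Dct, Slc24a5 and in the first of both Trpm1 entries, while 3.25% of 32851 promoters in the table held it. Oca2 had only CATGTG, which was present in 12.3% of promoters. Capitals mark these motifs, which read CACATGA and CACATG where they lie on the other strand.
Tyr (chr7:87493513-87493762, minus strand): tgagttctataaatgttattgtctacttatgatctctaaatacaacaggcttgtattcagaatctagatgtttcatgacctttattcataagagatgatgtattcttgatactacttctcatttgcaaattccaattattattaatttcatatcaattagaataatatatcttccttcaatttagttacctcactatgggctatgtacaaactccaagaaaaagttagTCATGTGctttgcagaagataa
Tyrp1 (chr4:80833963-80834212, plus strand): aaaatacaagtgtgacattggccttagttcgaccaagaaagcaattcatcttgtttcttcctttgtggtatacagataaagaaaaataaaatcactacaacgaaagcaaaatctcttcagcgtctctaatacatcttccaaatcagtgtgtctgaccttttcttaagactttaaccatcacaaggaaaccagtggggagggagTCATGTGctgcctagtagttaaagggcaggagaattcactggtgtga
Dct (chr14:118052247-118052496, minus strand): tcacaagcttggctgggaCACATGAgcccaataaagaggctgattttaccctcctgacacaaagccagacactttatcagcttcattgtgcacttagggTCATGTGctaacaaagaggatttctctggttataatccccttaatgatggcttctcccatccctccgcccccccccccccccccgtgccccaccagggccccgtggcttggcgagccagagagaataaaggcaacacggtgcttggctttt
Slc24a5 (chr2:125067877-125068126, plus strand): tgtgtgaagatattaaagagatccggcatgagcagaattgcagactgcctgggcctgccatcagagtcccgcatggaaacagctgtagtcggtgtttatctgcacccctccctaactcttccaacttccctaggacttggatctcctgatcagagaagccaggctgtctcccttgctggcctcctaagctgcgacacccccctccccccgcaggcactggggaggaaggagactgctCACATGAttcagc
Trpm1 (chr7:64153585-64153834, plus strand): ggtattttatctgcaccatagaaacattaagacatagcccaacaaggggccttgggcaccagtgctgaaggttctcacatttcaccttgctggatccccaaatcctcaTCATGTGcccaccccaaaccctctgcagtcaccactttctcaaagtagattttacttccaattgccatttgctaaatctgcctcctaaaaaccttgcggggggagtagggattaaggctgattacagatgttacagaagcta
Oca2 (chr7:56239509-56239758, plus strand): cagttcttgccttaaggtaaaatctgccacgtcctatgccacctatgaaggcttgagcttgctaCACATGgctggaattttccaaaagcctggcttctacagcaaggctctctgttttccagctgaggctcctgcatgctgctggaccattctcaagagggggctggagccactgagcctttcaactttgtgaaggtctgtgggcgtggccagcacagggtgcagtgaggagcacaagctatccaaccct
The core began, at its most distant base, at position -22 in Tyr, -47 in Tyrp1, -13 in Slc24a5 and -142 in Trpm1, and Dct had it at -232 and at -151. In Oca2 the shorter motif began at -186. These matches describe letters and not binding, which was not measured. Pmel, Mlana, Slc45a2 and Gpr143 had no entry in the table.

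Tyrp1, which stabilizes tyrosinase and oxidizes a melanin intermediate, was the most abundant of these transcripts with 9721 TPM in B16F10 luc2 (authors' TPM, mean of 5 libraries) against 0.478 TPM in D4M (4 libraries). Its replicates 1 to 5 measured 14306, 14290.4, 13498, 14046 and 13712 CPM in B16F10 luc2 and 27, 0.0444, 0, 0 and 2.85 CPM in D4M. The highest D4M value belonged to replicate 1 and was still far under every B16F10 luc2 library. The difference (log2 fold change 15.50, SE 0.97, adjusted p = 8.22e-14) became a log2 fold change of 17.08 without D4M replicate 1. Tyr, the rate-limiting enzyme of melanin synthesis, measured 1191, 1115, 1141, 1230.4 and 993 CPM in B16F10 luc2 and 0.806, 0.046, 0, 0 and 0.172 CPM in D4M. Here, too, D4M replicate 1 was the highest of its line, and 2 D4M libraries had no count (log2 fold change 13.65, SE 0.91, adjusted p = 2.79e-13, or 14.43 without D4M replicate 1). Dct, the dopachrome tautomerase, reached 5298 ± 202 CPM (SD, n = 5) in B16F10 luc2 and 2.44 ± 4.64 CPM in D4M (log2 fold change 13.42, SE 0.75, adjusted p = 6.81e-15), and its log2 fold change was 14.50 without D4M replicate 1.

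Pmel, the fibril protein of the early melanosome, had 6133 ± 630.4 against 2.08 ± 3.75 CPM (log2 fold change 13.04, SE 0.70, adjusted p = 3.03e-15). Mlana, a melanosome protein used as a diagnostic marker, had 1134 ± 139 against 0.687 ± 1.44 CPM (log2 fold change 13.33, SE 0.82, adjusted p = 5.75e-14). Slc45a2, a melanosomal transporter, had 1042 ± 109 against 0.219 ± 0.419 CPM (log2 fold change 13.65, SE 0.80, adjusted p = 1.76e-14). Without D4M replicate 1 these log2 fold changes were 13.90 for Pmel, 14.53 for Mlana and 14.53 for Slc45a2. For all of these genes the lowest B16F10 luc2 library exceeded the highest D4M library. Gpr143, a melanosomal receptor, had 62.4, 53.9, 46.5, 50.3 and 45.3 CPM in B16F10 luc2 and not a single count in D4M, at least 388-fold higher (adjusted p = 1.06e-10). Oca2, which regulates melanosomal pH, was the least abundant by TPM (3.81 in B16F10 luc2) and measured 9.05, 7.05, 7.3, 7.39 and 6.84 CPM in B16F10 luc2 and a count in 1 library of D4M alone, at least 56.5-fold higher (adjusted p = 3.21e-11). Trpm1, a cation channel whose gene hosts a microRNA, varied most in B16F10 luc2, from 122 to 247 CPM, and was at most 0.26 CPM in D4M (log2 fold change 10.92, SE 1.35, adjusted p = 4.43e-08). Slc24a5, a melanosomal exchanger, kept a low level in every D4M library, 4.24, 1.54, 0.603, 1.6 and 2.21 CPM, against 850.0, 787, 719, 765 and 774 CPM in B16F10 luc2 (log2 fold change 8.83, SE 0.36, adjusted p = 9.95e-18). Of its 31-base sequences, 40.2% are shared with other genes, so that its D4M counts are uncertain.

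**Figure D1:**
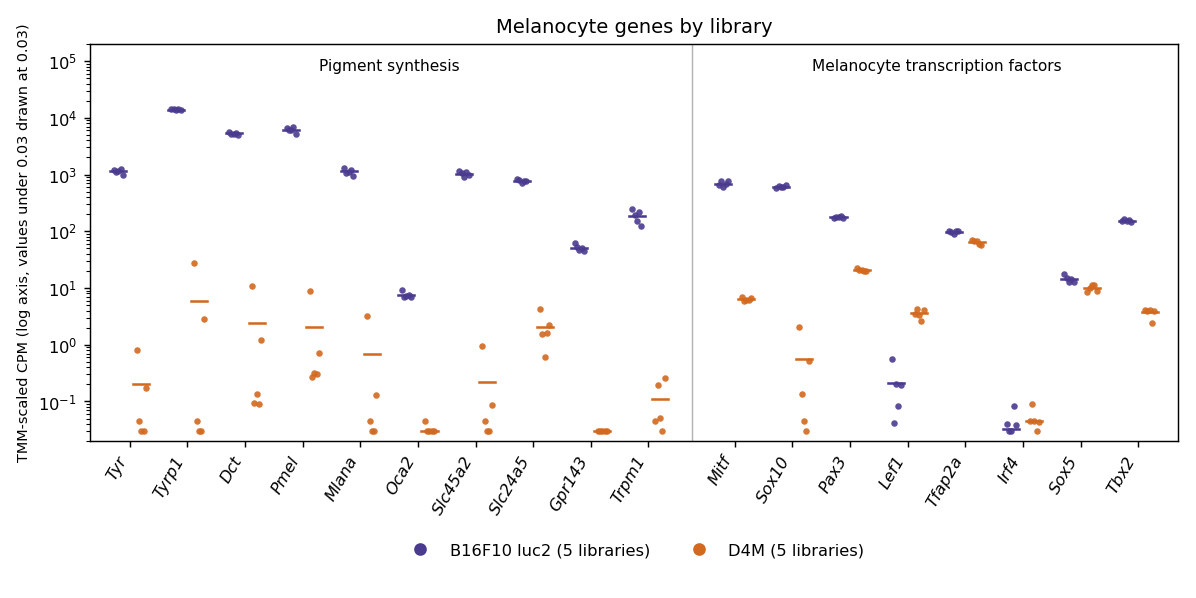
CPM on a log axis for each library of B16F10 luc2 and D4M, for the genes of pigment synthesis and the melanocyte transcription factors. Each point is 1 library, horizontal bars are means of 5 libraries, and values under 0.03 CPM are drawn at 0.03. All 10 pigment genes, but only 6 of 8 tested transcription factors, were higher in B16F10 luc2.

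Melanosome biogenesis and transport differed less than pigment synthesis. Of 23 genes, 19 were higher (82.6%) and 4 lower (17.4%) in B16F10 luc2, against 38.8% and 38.9% of all tested genes. Their median log2 fold change was 1.35. The largest differences were those of small GTPases that move or load melanosomes. Rab27a, which links melanosomes to actin transport, had 297 ± 21.2 CPM in B16F10 luc2 and 0.286 ± 0.134 CPM in D4M (log2 fold change 10.01, SE 0.82, adjusted p = 1.74e-11). Rab38, which sorts pigment enzymes, had 437 ± 42.6 and 0.855 ± 0.56 CPM (log2 fold change 9.18, SE 0.34, adjusted p = 1.46e-18). Rab17 had 36.5 ± 4.23 and 0.0871 ± 0.091 CPM (log2 fold change 8.95, SE 0.54, adjusted p = 3.59e-14). The 4 genes lower in B16F10 luc2 belong to the machinery that other cells also use for lysosome-related organelles and autophagy. Among them Hps6 had 6.09 ± 1.08 CPM in B16F10 luc2 and 22.2 ± 3.17 CPM in D4M (log2 fold change -1.87, SE 0.12, adjusted p = 6.51e-14), Bloc1s6 had a log2 fold change of -1.51, Wipi1 one of -0.85, and Bloc1s3, chosen after its values were seen, one of -0.28.

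Of 8 tested melanocyte transcription factors, 6 were higher in B16F10 luc2 (75%), 1 was lower (12.5%) and 1 did not differ at the threshold. The shares of all tested genes were 38.8% higher and 38.9% lower. Mitf, the central regulator of pigment cells, measured 649, 773, 592, 667 and 780.0 CPM in B16F10 luc2 and 6.99, 5.91, 6.19, 6.26 and 6.56 CPM in D4M. The D4M libraries were close to each other, and replicate 1 did not stand apart for Mitf as it did for the pigment genes (log2 fold change 6.75, SE 0.23, adjusted p = 1.82e-19). Sox10, a neural crest factor upstream of Mitf, measured 579, 634, 599, 596 and 656 CPM in B16F10 luc2 and 2.07, 0.133, 0.0445, 0 and 0.511 CPM in D4M. The D4M mean rested on replicate 1, and the log2 fold change of 11.65 (SE 0.54, adjusted p = 1.78e-16) became 12.48 without it. Pax3 acts beside Sox10 and remained detectable in D4M, where all libraries lay between 19.99 and 22.7 CPM against 169.6 to 187 CPM in B16F10 luc2 (log2 fold change 3.07, SE 0.07, adjusted p = 2.37e-22).

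Tbx2, a T-box repressor of senescence, had 154 ± 5.67 CPM in B16F10 luc2 and 3.71 ± 0.714 CPM in D4M (log2 fold change 5.39, SE 0.31, adjusted p = 1.67e-14). The smallest differences on the list were those of Tfap2a (log2 fold change 0.61, adjusted p = 3.32e-06) and Sox5 (log2 fold change 0.53, adjusted p = 0.000263). Lef1, a mediator of Wnt signals, went the other way with 0.556, 0.0415, 0.206, 0.0825 and 0.192 CPM in B16F10 luc2 and 3.53, 4.28, 3.31, 2.58 and 4.08 CPM in D4M (log2 fold change -4.30, SE 0.41, adjusted p = 3.16e-10). Irf4 had at most 3 counts in every library of both lines. Of the 31-base sequences, 14.6% of Lef1 and 12.7% of Tfap2a are shared with other genes.

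Of the receptors through which melanocytes receive signals, Mc1r, Kit, Erbb3 and Met were higher in B16F10 luc2, whereas ligands of the last 3 of them were higher in D4M. Of 9 tested receptors and ligands, 5 were higher (55.6%), 3 lower (33.3%) and 1 not called. Among all tested genes 38.8% were higher and 38.9% lower. Mc1r, the melanocortin receptor, had 252, 231, 276, 261 and 242 CPM in B16F10 luc2 and 0.829, 0.0889, 0.132, 0 and 0 CPM in D4M (log2 fold change 11.42, SE 0.89, adjusted p = 6.76e-12, or 12.20 without D4M replicate 1). Of its 31-base sequences, 20.1% are shared with other genes. Kit, the receptor of stem cell factor, was low in B16F10 luc2 with 8.81, 7.01, 5.07, 5.78 and 7.81 CPM and at most 3 counts in every D4M library, at least 51.8-fold higher (adjusted p = 7.97e-10). Its ligand Kitl had the opposite pattern with 6.95 ± 0.683 against 137 ± 6.13 CPM (log2 fold change -4.30, SE 0.10, adjusted p = 1.39e-22). Erbb3 was higher in B16F10 luc2 with 28.3 ± 4.57 against 0.487 ± 0.113 CPM (log2 fold change 5.81, SE 0.36, adjusted p = 6.99e-14), while its ligand Nrg1 had at most 3 counts in each B16F10 luc2 library and 28.1, 15.8, 25.9, 20.6 and 29.99 CPM in D4M, at least 199-fold lower in B16F10 luc2 (adjusted p = 2.34e-13). Met, chosen after its values were seen, followed the same order with 1711 ± 99.4 against 121 ± 13.4 CPM (log2 fold change 3.83, SE 0.15, adjusted p = 3.32e-18), and its ligand Hgf was at least 21.7-fold lower in B16F10 luc2 (adjusted p = 2.65e-12). The remaining gene that was higher, Pomc, was also chosen after its values were seen and encodes the precursor of the ligands of Mc1r (log2 fold change 3.65, SE 0.31, adjusted p = 5.07e-11). Edn1 did not pass the filter.

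Receptors of dedifferentiated melanoma cells were lower in B16F10 luc2 for 12 of 13 tested genes, where 38.9% of all tested genes were lower. Their median log2 fold change was -4.12, or -3.02 with genes silent in a line set to their bound. Fgfr1, a fibroblast growth factor receptor, measured 0.318, 0.124, 0.248, 0.165 and 0.231 CPM in B16F10 luc2 and 232, 265, 241, 239 and 262 CPM in D4M. The lines were widely separated, and replicates of each line were close (log2 fold change -10.08, SE 0.32, adjusted p = 7.39e-20). Egfr had at most 3 counts in each B16F10 luc2 library and 10.3, 11.5, 12.7, 11.7 and 16.3 CPM in D4M, at least 103-fold lower in B16F10 luc2 (adjusted p = 6.49e-16). Nt5e, the ectonucleotidase CD73, had no count in B16F10 luc2 and 3.17 ± 0.183 CPM in D4M, at least 26.2-fold lower (adjusted p = 4.61e-15). Ngfr, a neurotrophin receptor of neural crest-like cells, had 1.71, 4.16, 3.83, 2.52 and 4.46 CPM in B16F10 luc2 and 1.38, 1.25, 3.39, 0.889 and 2.64 CPM in D4M, and the libraries of both lines overlapped (adjusted p = 0.281).

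Mesenchymal transcription factors were lower in B16F10 luc2 for 12 of 13 tested genes (92.3%, against 38.9% of all tested genes). Their median log2 fold change was -6.35. In all 13 genes the libraries of both lines did not overlap, which was the case for 68.1% of all tested genes. Prrx1, a homeobox factor of mesenchyme, had a single B16F10 luc2 library with any count and 383, 358, 340.4, 363 and 414 CPM in D4M, at least 3066-fold lower in B16F10 luc2 (adjusted p = 3.79e-20). Sox2, a factor of stem and neural progenitor cells, had no count in B16F10 luc2 and 237, 276, 271, 257 and 200.4 CPM in D4M, at least 2046-fold lower (adjusted p = 3.94e-18). Twist1, a driver of epithelial-mesenchymal transition, likewise had no count in B16F10 luc2 and 78.6, 99.2, 74.5, 70.6 and 72.4 CPM in D4M, at least 652-fold lower (adjusted p = 2.25e-19). For these 3 genes D4M was uniformly high and B16F10 luc2 at or near 0. Zeb2, which is expressed in normal melanocytes, was the exception with 143, 133, 147, 148 and 143 CPM in B16F10 luc2 and 91.9, 113, 88.7, 99.9 and 105 CPM in D4M (log2 fold change 0.52, SE 0.08, adjusted p = 3.7e-06).

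AP-1 factors bind DNA as dimers of FOS, JUN and ATF proteins. Of 11 tested, 7 were lower (63.6%) and 2 higher (18.2%) in B16F10 luc2, and 2 were not called (median log2 fold change -1.20). Of all tested genes, 38.9% were lower and 38.8% higher. Fosl1 had at most 1 count in a B16F10 luc2 library and 262, 247, 238, 197 and 188 CPM in D4M, at least 1868-fold lower in B16F10 luc2 (adjusted p = 4.43e-17), although 54.5% of its 31-base sequences are shared with another gene, Ccdc85b. Fosb had 0.323 ± 0.0645 CPM in B16F10 luc2 and 32.5 ± 6.1 CPM in D4M (log2 fold change -6.56, SE 0.37, adjusted p = 9.24e-15), and Fosl2 had 13.6 ± 5.0 and 113 ± 22.8 CPM (log2 fold change -3.10, SE 0.19, adjusted p = 4.85e-14). Differences were smaller than those of Fosl1, Fosb and Fosl2 among JUN proteins, where Jun (log2 fold change -2.30), Junb (-2.16) and Jund (-0.43), named after their values were seen, were all lower in B16F10 luc2. Atf3, a stress-induced factor, was higher with 9.4, 6.55, 7.88, 10.3 and 7.38 CPM in B16F10 luc2 and 2.53, 1.73, 1.87, 1.69 and 3.92 CPM in D4M (log2 fold change 1.87, SE 0.27, adjusted p = 6.9e-07). The other gene called higher, Batf, had at most 3 counts in every library of both lines. Fos, the founding member, had 5.12, 5.97, 4.41, 6.4 and 4.04 CPM in B16F10 luc2 and 6.53, 1.91, 5.03, 3.91 and 1.79 CPM in D4M and overlapped between the lines (adjusted p = 0.0782). It was called higher without D4M replicate 1 (log2 fold change 0.82, adjusted p = 0.0219) or 3 (0.73, adjusted p = 0.0482). The AP-1 site TGANTCA, where N is any base, was found in none of 10 promoter entries of the 8 called AP-1 genes in the table. Of all promoters, 6.75% held it, and Fosl1 had no entry.

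**Figure D2:**
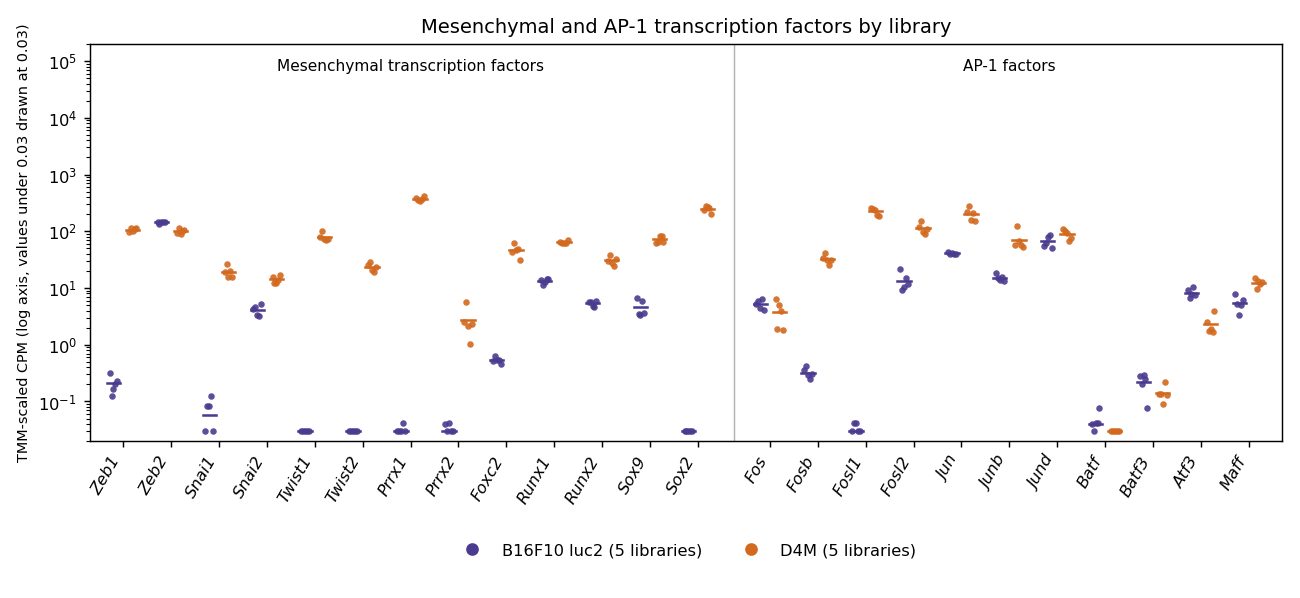
CPM on a log axis for each library of B16F10 luc2 and D4M, for mesenchymal transcription factors and AP-1 factors. Each point is 1 library, horizontal bars are means of 5 libraries, and values under 0.03 CPM are drawn at 0.03. Of the mesenchymal factors, 12 of 13 were lower in B16F10 luc2, and Zeb2 was higher, while Fos overlapped between the lines.

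Hox genes, which set position along the body axis in the embryo, differed in both directions. Of 25 tested Hox genes, 15 were higher in B16F10 luc2 (60%), 7 lower (28%) and 3 not called (median log2 fold change 0.92). Among all tested genes 38.8% were higher and 38.9% lower. Hoxa10 had 37.7, 50.8, 47.5, 45.4 and 45.8 CPM in B16F10 luc2 and 0.276, 0, 0.0445, 0 and 0.17 CPM in D4M (log2 fold change 9.30, SE 0.48, adjusted p = 1.64e-15). Hoxa11 was at least 116-fold higher (adjusted p = 8.54e-17) and Hoxd13 at least 82.8-fold higher (adjusted p = 8.76e-17), with 15.4 ± 1.39 and 11 ± 0.857 CPM in B16F10 luc2. Of the sequences of Hoxa11, 33.9% are shared with other genes. Within the Hoxd cluster the direction changed, since Hoxd9 had no count in B16F10 luc2 and 11.4, 9.63, 11.5, 10.4 and 10.2 CPM in D4M, at least 87.6-fold lower (adjusted p = 2.37e-22), and Hoxd8 had 0.185 ± 0.0928 against 45.3 ± 2.78 CPM (log2 fold change -7.90, SE 0.24, adjusted p = 2.7e-20). Hoxb4 was also lower in B16F10 luc2 (log2 fold change -6.35, SE 0.31, adjusted p = 3.61e-16). Hoxb3, of which 52.7% of the sequences are shared, had 2.41 ± 0.289 CPM in B16F10 luc2 and 2.93 ± 0.554 CPM in D4M (adjusted p = 0.359).

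Among 10 tested homeobox and AP-2 factors of the neural crest and head, 4 were higher (40%) and 5 lower (50%) in B16F10 luc2. These shares lay near the 38.8% higher and 38.9% lower of all tested genes. Alx1, a factor of the craniofacial mesenchyme, had 41.5, 40.7, 38.4, 38 and 42.9 CPM in B16F10 luc2 and 0.46, 0, 0, 0 and 0.0426 CPM in D4M (log2 fold change 9.64, SE 0.47, adjusted p = 3.92e-16, or 10.43 without D4M replicate 1). Lmx1b (21.4 against 0.0364 CPM, log2 fold change 9.03, SE 0.40, adjusted p = 5.16e-17) and Dlx6 (11.5 against 0.0549 CPM, log2 fold change 7.71, SE 0.55, adjusted p = 1.12e-12) were higher as well. The libraries of D4M were at or near 0 for these 3 genes. Tfap2b, the AP-2 beta factor, was instead high in D4M with 238, 245, 282, 289 and 268 CPM and had at most 3 counts in each B16F10 luc2 library, at least 2182-fold lower (adjusted p = 8.1e-16). Msx1 had no count in B16F10 luc2 and 22.7 ± 4.89 CPM in D4M, at least 187-fold lower (adjusted p = 8.01e-16), and Dlx2 had 0.274 ± 0.105 against 7.99 ± 2.67 CPM (log2 fold change -4.79, SE 0.38, adjusted p = 9.39e-12). Msx2 did not pass the filter.

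Genes that are mutated or lost in melanoma differed little. Of 16 tested, 6 were higher and 6 lower in B16F10 luc2, with a median log2 fold change of -0.02. These were 37.5% each, near the 38.8% higher and 38.9% lower of all tested genes. Only 1 of the higher and 2 of the lower reached an absolute log2 fold change of 1. Among all tested genes 39.8% did (18.1% higher and 21.7% lower). Braf, the mutated kinase of the D4M model, had 61, 53.1, 49.2, 51.5 and 49.9 CPM in B16F10 luc2 and 24.7, 27.2, 26.4, 27.4 and 26.5 CPM in D4M (log2 fold change 1.00, SE 0.07, adjusted p = 2.55e-12). Trp53 had 196 ± 11.2 CPM in B16F10 luc2 and 250.3 ± 13.8 CPM in D4M (log2 fold change -0.35, SE 0.07, adjusted p = 5.56e-05), with 10.2% of its sequences shared. Cdkn2a, which encodes inhibitors of CDK4 and of p53 degradation, had no count in B16F10 luc2 and at most 3 counts in a D4M library, so that no fold was given although it was called lower. Cdkn2b had at most 1 count in any library, and Ret at most 3.

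Akt1, a kinase of the PI3K pathway, was higher in B16F10 luc2. It had 1173 ± 27.1 CPM in B16F10 luc2 and 526 ± 20.5 CPM in D4M (log2 fold change 1.16, SE 0.06, adjusted p = 2.55e-16). Akt2, with 13.3% of its sequences shared, had 120.3 ± 4.85 and 125 ± 4.59 CPM (adjusted p = 0.264). Ctnnb1, beta-catenin, was higher in B16F10 luc2 (log2 fold change 0.96, SE 0.05, adjusted p = 9.77e-15), with 13.2% of its sequences shared. Of the RAS genes, Nras had a log2 fold change of -0.40 (adjusted p = 8.59e-07) and Hras one of 0.00 (adjusted p = 0.973). Map2k1, which encodes MEK1, had 94.6 ± 6.2 and 135 ± 9.73 CPM (log2 fold change -0.51, SE 0.05, adjusted p = 9.29e-10), and Rac1, with 51.3% of its sequences shared, had a log2 fold change of -0.33 (adjusted p = 1.2e-06). Cdk4 had 619 ± 9.83 and 570.3 ± 14.5 CPM (log2 fold change 0.12, SE 0.05, adjusted p = 0.0201), with 19.5% of its sequences shared. This call was lost without B16F10 luc2 replicate 2 or 3 or D4M replicate 2 or 5. Nf1, a negative regulator of RAS, had 88 ± 5.92 and 91 ± 6.02 CPM (adjusted p = 0.521) and changed its sign in TPM, where its log2 fold change was 0.31.

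Genes that respond to ERK, the last kinase of the pathway that Braf starts, were lower in B16F10 luc2 for 13 of 17 tested. This was 76.5%, against 38.9% of all tested genes, and the median log2 fold change was -2.26. Dusp5, a nuclear phosphatase of ERK, had 0.595, 0.705, 0.412, 0.903 and 0.384 CPM in B16F10 luc2 and 84.6, 148, 83, 88.4 and 59.2 CPM in D4M (log2 fold change -7.23, SE 0.46, adjusted p = 8.69e-14). Spry4, a feedback inhibitor of receptor signals, had 8.13, 4.1, 2.6, 4.54 and 5.23 CPM in B16F10 luc2 and 180.3, 244, 161, 188 and 105 CPM in D4M (log2 fold change -5.19, SE 0.37, adjusted p = 9.2e-13). For both genes the D4M replicates varied more than 2-fold, but no library of one line reached the other. Spred3 was less variable with 3.85 ± 0.527 against 76.5 ± 4.23 CPM (log2 fold change -4.31, SE 0.13, adjusted p = 2.45e-20). Not all feedback genes were lower, since Dusp4 (258 ± 29.5 against 118 ± 12.4 CPM, log2 fold change 1.13, SE 0.10, adjusted p = 1.58e-10) and Phlda1 (log2 fold change 0.84) were higher in B16F10 luc2, as was Spry1 (0.36). Myc had 169.6, 93.1, 105, 84.9 and 114 CPM in B16F10 luc2 and 89.7, 126, 82.3, 103 and 74.7 CPM in D4M and was not called (adjusted p = 0.281). Of the 31-base sequences, 21.2% of Dusp5, 30.8% of Phlda1 and 23.1% of Spry1 are shared with other genes.

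Target genes of p53 were lower in B16F10 luc2 for 10 of 16 tested, higher for 1 and not called for 5, with a median log2 fold change of -0.49. The share called, 68.8%, lay under the 77.7% of all tested genes, while 62.5% were lower against 38.9% of all. The number of lower genes was 6 in TPM. Only 2 of the 16, Eda2r and Pmaip1, changed by 1 or more on the log2 scale. Such called changes were found in 39.8% of all tested genes. The libraries of both lines did not overlap in 6 of the 16 genes, against 68.1% of all tested genes. Eda2r, a death receptor, had at most 3 counts in each B16F10 luc2 library and 38.2, 47.2, 36.4, 43.2 and 41.8 CPM in D4M, at least 341-fold lower (adjusted p = 2.61e-13). Pmaip1, which encodes the pro-apoptotic NOXA, had no count in B16F10 luc2 and 6.38, 4.93, 5.12, 5.42 and 8.6 CPM in D4M, at least 50.2-fold lower (adjusted p = 2.59e-16). Cdkn1a, the cell cycle inhibitor p21, was expressed in both lines with 187 ± 8.82 and 338 ± 66.3 CPM (log2 fold change -0.83, SE 0.14, adjusted p = 1.1e-05). Ei24 was the gene that was higher in B16F10 luc2 (log2 fold change 0.26, SE 0.05, adjusted p = 6.8e-05), although the libraries of both lines overlapped.

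Of 16 tested genes of the Hippo pathway, which restrains growth by keeping YAP and TAZ out of the nucleus, 4 were higher and 6 lower in B16F10 luc2 (median log2 fold change -0.02), so that 62.5% were called, against 77.7% of all tested genes. The TAZ gene Wwtr1 had 47.7, 44.7, 44.4, 45.9 and 45.7 CPM in B16F10 luc2 and 466, 459.7, 539, 479 and 450.3 CPM in D4M (log2 fold change -3.39, SE 0.06, adjusted p = 2.31e-24). The DNA-binding partner Tead1 was lower too (86.4 ± 6.38 against 261 ± 13 CPM, log2 fold change -1.59, SE 0.08, adjusted p = 5.44e-16). In contrast to Wwtr1, its paralog Yap1 had 149 ± 3.1 and 149 ± 4.24 CPM and was not called (log2 fold change -0.00, chosen after its values were seen). Of the other members, Amotl2 (log2 fold change 1.70, SE 0.16, adjusted p = 1.8e-10), F3 (log2 fold change 1.58, SE 0.22, adjusted p = 3.91e-07) and Ajuba (log2 fold change 1.02, SE 0.11, adjusted p = 4.14e-09) were higher in B16F10 luc2, while Ankrd1 was at least 6.18-fold lower with 0.749 CPM in D4M (adjusted p = 1.47e-05).

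**Figure D3:**
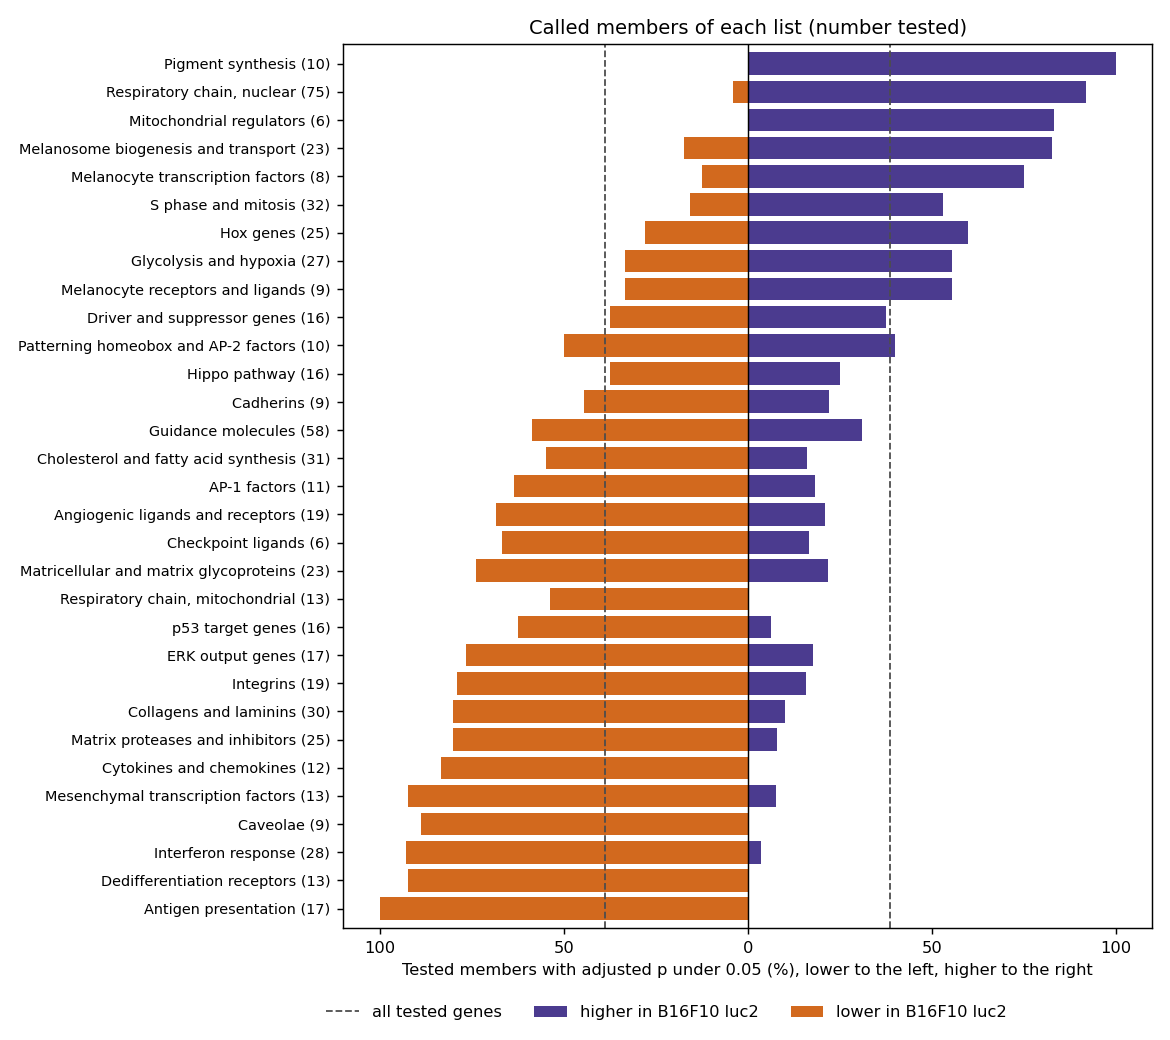
Percent of tested members of 31 gene lists called lower (left) or higher (right) in B16F10 luc2 than in D4M at an adjusted p under 0.05, with dashed lines at the shares of all tested genes (38.9% lower, 38.8% higher). Pigment synthesis lies entirely on the higher side and antigen presentation entirely on the lower side.

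Genes of the extracellular matrix were mostly lower in B16F10 luc2. Of 30 tested collagens and laminins, 24 were lower in B16F10 luc2 (80%, against 38.9% of all tested genes), 3 higher and 3 not called. Their median log2 fold change was -4.43 (-4.08 with bounds). Col3a1, a fibrillar collagen, had no count in B16F10 luc2 and 371, 651, 227, 491 and 622 CPM in D4M, at least 3895-fold lower (adjusted p = 1.56e-11). Col5a2 had a single library with any count in B16F10 luc2 and 265, 331, 189, 250.2 and 295 CPM in D4M, at least 2194-fold lower (adjusted p = 1.07e-16). Col6a2, a chain of the beaded filament collagen VI, had 149.7, 270.2, 152, 233 and 216 CPM in D4M and no count in B16F10 luc2, at least 1685-fold lower (adjusted p = 1.58e-15). B16F10 luc2 was at or near 0 for these 3 collagens, and D4M replicate 2 was the highest of its line in each. Col4a4 of the basement membrane (10.3 ± 1.27 against 0.348 ± 0.185 CPM, log2 fold change 4.93, SE 0.35, adjusted p = 8.09e-13) and Col15a1 (log2 fold change 2.24, SE 0.28, adjusted p = 4.23e-08) were higher in B16F10 luc2, and Col14a1 was at least 13.9-fold higher (adjusted p = 9.96e-08). Lamb2 had 38.1 ± 4.93 and 34.5 ± 4.58 CPM (adjusted p = 0.256). Fibroblast markers moved with these genes: all 5 that were tested of 8 were lower in B16F10 luc2, their sum over the 8 genes lay between 20.9 and 29.0 CPM in B16F10 luc2 and between 686 and 1333 CPM in D4M, and Lum was the member with at most 3 counts in every D4M library. The part of fibroblast-like cells in the result was not tested, and the markers share Col3a1, Col1a1 and Col1a2 with the list.

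Matricellular proteins and matrix glycoproteins were lower in B16F10 luc2 for 17 of 23 tested genes (73.9%, against 38.9% of all tested genes). Of the others, 5 were higher and 1 was not called, and the median log2 fold change of the list was -6.05. Spp1, the secreted phosphoprotein osteopontin, was the most abundant of the named D4M transcripts with 18975 TPM against 1.14 TPM in B16F10 luc2. Its libraries measured 0.794, 1.16, 0.907, 1.11 and 0.961 CPM in B16F10 luc2 and 19089.8, 18362, 19462, 17828 and 16469 CPM in D4M (log2 fold change -14.16, SE 0.54, adjusted p = 3.02e-18), with 14.3% of its sequences shared. Bgn, the proteoglycan biglycan, had 0, 0.0415, 0.165, 0 and 0.0769 CPM in B16F10 luc2 and 1580.4, 1751, 1894, 1772 and 1791 CPM in D4M (log2 fold change -14.99, SE 0.66, adjusted p = 4.59e-17). Tnc, tenascin C, had no count in B16F10 luc2 and 323, 325, 304, 383 and 339 CPM in D4M, at least 2759-fold lower (adjusted p = 3.01e-14). Thbs2, thrombospondin 2, had at most 3 counts in each B16F10 luc2 library and 798, 749.6, 784, 799 and 856 CPM in D4M, at least 6577-fold lower (adjusted p = 1.04e-16). In all 4 genes every D4M library was far above every B16F10 luc2 library, and B16F10 luc2 was near 0.

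A few members of the list were higher in B16F10 luc2 instead. Fbln5, which organizes elastic fibers, had 431, 441, 395, 482 and 420.2 CPM in B16F10 luc2 and 6.67, 5.87, 5.66, 7.69 and 8.86 CPM in D4M (log2 fold change 5.98, SE 0.22, adjusted p = 1.57e-18). Fbln1 had 115 ± 15.3 and 12.1 ± 3.79 CPM (log2 fold change 3.30, SE 0.18, adjusted p = 3.07e-15), and Eln, elastin, named after its values were seen, had 1.88 ± 0.503 and 0.419 ± 0.255 CPM (log2 fold change 2.29, SE 0.41, adjusted p = 1.48e-05). Thbs3 was also higher in B16F10 luc2 (log2 fold change 2.34, SE 0.15, adjusted p = 9.43e-14), and so was Loxl2 (log2 fold change 0.85), chosen after its values were seen. Postn had 4.8, 8.79, 7.26, 5.41 and 6.42 CPM in B16F10 luc2 and 6.44, 9.56, 14, 19.8 and 16.5 CPM in D4M and was not called (adjusted p = 0.0607), but it was called lower without D4M replicate 1 (log2 fold change -1.19, adjusted p = 0.0198) or 2 (-1.06, adjusted p = 0.0496). Among promoters of the called genes on this list, 1 of 21 entries for 15 genes held TGANTCA, that of the fibulin family member Efemp1 at position -154. It is shown with the site in capitals.
Efemp1 (chr11:28852955-28853204, plus strand): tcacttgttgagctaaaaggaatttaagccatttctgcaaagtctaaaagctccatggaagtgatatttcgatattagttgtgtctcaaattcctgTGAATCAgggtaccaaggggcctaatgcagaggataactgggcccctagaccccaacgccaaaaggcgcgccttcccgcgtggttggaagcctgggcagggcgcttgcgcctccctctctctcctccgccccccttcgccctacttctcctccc

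Matrix proteases and their inhibitors were lower in B16F10 luc2 for 20 of 25 tested genes (2 higher, 3 not called, median log2 fold change -3.58). The lower genes made up 80%, against 38.9% of all tested genes. Plau, the urokinase-type plasminogen activator, had at most 3 counts in each B16F10 luc2 library and 1448, 855, 1549, 1694 and 1138 CPM in D4M. Replicate 2 was the lowest D4M library, and the mean was at least 11026-fold lower in B16F10 luc2 (adjusted p = 7.4e-15). Of the stromelysins, Mmp3 had 202, 161, 221, 207 and 197 CPM in D4M and was at least 1629-fold lower in B16F10 luc2 (adjusted p = 2.1e-20), and Mmp10 had 87.1, 34.4, 57.8, 51.9 and 80.03 CPM in D4M and was at least 513-fold lower (adjusted p = 3.18e-12). Of their sequences, 14.6% and 11.9% are shared with other genes. Mmp15, a membrane-bound protease (12.6 ± 1.51 against 3.73 ± 0.855 CPM, log2 fold change 1.78, SE 0.17, adjusted p = 5.3e-10), and Adamts12 (13.2 ± 0.142 against 4.16 ± 0.368 CPM, log2 fold change 1.66, SE 0.10, adjusted p = 2.36e-14) were higher in B16F10 luc2. Adamts1 had 105 ± 16.4 and 131 ± 25.3 CPM (adjusted p = 0.252).

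Integrins, the receptors for this matrix, were lower in B16F10 luc2 for 15 of 19 tested subunits (3 higher, 1 not called, median log2 fold change -2.27). The lower subunits made up 78.9%, against 38.9% of all tested genes. Itga3, a laminin receptor subunit, had 0.317, 0.373, 0.454, 0.536 and 0.154 CPM in B16F10 luc2 and 529.7, 482, 685, 471 and 469 CPM in D4M (log2 fold change -10.51, SE 0.35, adjusted p = 1.91e-19). Itga2, a collagen receptor subunit, had 0.106 ± 0.104 and 54.6 ± 11 CPM (log2 fold change -9.04, SE 0.57, adjusted p = 1.02e-13), and Itga7, another laminin receptor subunit, had 0.859 ± 0.198 and 195 ± 32.7 CPM (log2 fold change -7.82, SE 0.28, adjusted p = 1.05e-18). Itga9, which binds tenascin and osteopontin, had the opposite pattern with 76.9, 70.03, 72.5, 77.9 and 62.7 CPM in B16F10 luc2 and 0.827, 0.844, 0.757, 0.533 and 0.809 CPM in D4M (log2 fold change 6.55, SE 0.34, adjusted p = 1.52e-15). Itga4, known as a receptor for VCAM1 and fibronectin, was higher as well (237 ± 13.3 against 92.2 ± 11 CPM, log2 fold change 1.37, SE 0.14, adjusted p = 1.09e-09), and so was Itgb4 (log2 fold change 1.07, SE 0.23, adjusted p = 0.000124).

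Cadherins differed by member. Of 9 tested, 2 were higher and 4 lower in B16F10 luc2 (median log2 fold change -1.14, or -0.45 with bounds), and the 44.4% that were lower compare with 38.9% of all tested genes. Cdh19, a cadherin of the neural crest and glia, had 33, 34.4, 34.3, 29 and 28.3 CPM in B16F10 luc2 and 0.23, 0.133, 0, 0.0444 and 0.0426 CPM in D4M (log2 fold change 8.60, SE 0.70, adjusted p = 1.54e-11), and Cdh10 was at least 23.5-fold higher (adjusted p = 4.86e-15). Cdh6 had 0.357, 0.456, 0, 0.17 and 0.269 CPM in B16F10 luc2 and 213, 195, 206, 283 and 283 CPM in D4M (log2 fold change -10.31, SE 0.65, adjusted p = 9.2e-14), and Cdh13, which is anchored to the membrane by a lipid, had 0.113 ± 0.0519 and 157 ± 25.4 CPM (log2 fold change -10.30, SE 0.58, adjusted p = 7.24e-15). Cdh15 was lower at a low level, at least 7.99-fold (adjusted p = 1.15e-08). Cdh2, N-cadherin, was abundant in both lines and lower in B16F10 luc2 (169 ± 12.3 against 371 ± 25.8 CPM, log2 fold change -1.14, SE 0.09, adjusted p = 1.15e-11), named after its values were seen. Cdh1, E-cadherin, had 0.36 ± 0.165 and 0.138 ± 0.117 CPM and was not called (adjusted p = 0.0857), but was called higher without B16F10 luc2 replicate 2 (log2 fold change 1.66, adjusted p = 0.039).

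Genes of caveolae, the flask-shaped invaginations of the plasma membrane, were lower in B16F10 luc2 for 8 of 9 tested (median log2 fold change -3.36). This was 88.9%, against 38.9% of all tested genes. The coat protein genes Cavin3, with 215, 242, 191, 208 and 196 CPM in D4M and no count in B16F10 luc2, and Cavin4, with 54.4, 82.2, 28.9, 36.3 and 49 CPM in D4M, were at least 1736-fold (adjusted p = 2.6e-22) and 414-fold (adjusted p = 3.3e-11) lower. Of the sequences of Cavin3, 21.1% are shared. Cav1, the structural protein of caveolae, kept a low level with 1.19, 1.74, 1.53, 1.24 and 1.96 CPM in B16F10 luc2 and 777, 1037, 580.3, 712 and 781 CPM in D4M (log2 fold change -8.97, SE 0.34, adjusted p = 2.29e-18). Cavin2 had 53.2, 48.3, 45.4, 50.9 and 44.7 CPM in B16F10 luc2 and 55.5, 47.2, 29.7, 45.5 and 64.3 CPM in D4M and was the member that was not called (adjusted p = 0.793).

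Guidance molecules steer axons and migrating neural crest cells. Of 58 tested, 18 were higher and 34 lower in B16F10 luc2 (median log2 fold change -1.53). Among receptors, Unc5c for netrins (103 ± 5.18 against 0.191 ± 0.357 CPM, log2 fold change 10.36, SE 0.54, adjusted p = 1.99e-15), Robo1 for slits (51.5 ± 4.18 against 0.0938 ± 0.121 CPM, log2 fold change 9.54, SE 0.54, adjusted p = 1.05e-14) and Epha3 for ephrins (78 ± 16.6 against 0.39 ± 0.248 CPM, log2 fold change 7.83, SE 0.60, adjusted p = 4.94e-12) were higher. For Unc5c, D4M replicate 1 reached 0.827 CPM, and the other D4M libraries were at most 0.0852 CPM, and the log2 fold change was 11.19 without replicate 1. Tenm3, a teneurin, had no count in B16F10 luc2 and 392, 537, 484, 452 and 489 CPM in D4M, at least 3885-fold lower (adjusted p = 4.83e-19). Sema5a, a semaphorin, had 0.0976 ± 0.0619 and 319.8 ± 40.9 CPM (log2 fold change -11.72, SE 0.58, adjusted p = 5.26e-16), and Plxna2, a semaphorin receptor, was at least 501-fold lower with 60.8 ± 5.96 CPM in D4M (adjusted p = 1.47e-16). Tenm4 was not called (adjusted p = 0.198).

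Of 19 tested angiogenic ligands and receptors, 4 were higher (21.1%) and 13 lower (68.4%) in B16F10 luc2 (median log2 fold change -1.68). Among all tested genes 38.8% were higher and 38.9% lower. The lymphangiogenic ligand Vegfc had 17.3, 19.3, 21.1, 18.9 and 19.1 CPM in B16F10 luc2 and 1.24, 1.07, 0.891, 0.80 and 1.41 CPM in D4M (log2 fold change 4.14, SE 0.19, adjusted p = 1.83e-16). Its receptor Flt4 was near the limit of detection in both lines (0.634 ± 0.163 and 0.0708 ± 0.081 CPM, log2 fold change 3.31, SE 0.56, adjusted p = 6.9e-06). Vegfb was higher by a smaller amount (89.7 ± 9.47 against 59 ± 7.92 CPM, log2 fold change 0.61, SE 0.10, adjusted p = 5.1e-06), and so was the co-receptor Nrp2 (log2 fold change 0.57), chosen after its values were seen. Flt1, a receptor that also acts as a trap for VEGF, had 0, 0, 0.124, 0 and 0.115 CPM in B16F10 luc2 and 171, 189, 218, 199.7 and 221 CPM in D4M (log2 fold change -12.14, SE 0.58, adjusted p = 3e-16). Pdgfc, a ligand of PDGF receptors, had no count in B16F10 luc2 and 34.3, 51.7, 24.9, 24.3 and 37.1 CPM in D4M, at least 284-fold lower (adjusted p = 1.71e-12). Angptl4, an inhibitor of lipoprotein lipase that also acts on vessels, had 11.3, 2.62, 8.95, 9.28 and 9.33 CPM in D4M, where replicate 2 was far under the others, and was at least 68.4-fold lower in B16F10 luc2 (adjusted p = 8.2e-10). Fgf1 had 7.2 ± 1.37 and 5.66 ± 0.793 CPM (adjusted p = 0.171).

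Cytokines and chemokines, antigen presentation and interferon response were lower in B16F10 luc2 nearly throughout. Of 23 cytokines and chemokines listed, 12 were tested, 10 were lower and none higher (median log2 fold change -5.97, or -4.18 with bounds). The lower genes were 83.3% of those tested, against 38.9% of all tested genes. Ccl2, which attracts monocytes, had a single count in B16F10 luc2 and 39.1, 47.2, 47.4, 40.6 and 38.6 CPM in D4M, at least 351-fold lower (adjusted p = 6.72e-19). Cx3cl1, a membrane-bound chemokine, had 0.556, 0.746, 0.701, 0.66 and 0.769 CPM in B16F10 luc2 and 262, 233, 303, 214 and 206 CPM in D4M (log2 fold change -8.42, SE 0.27, adjusted p = 7.8e-20). Cxcl12 was at least 69.1-fold lower with 8.38 ± 3.54 CPM in D4M (adjusted p = 1.47e-12). Cxcl10 had 3.25, 3.77, 4.0, 3.96 and 6.81 CPM in B16F10 luc2 and 4.87, 6.0, 5.61, 7.02 and 8.01 CPM in D4M and was not called (adjusted p = 0.174).

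All 17 tested genes of antigen presentation were lower in B16F10 luc2, against 38.9% of all tested genes (median log2 fold change -4.31). Nlrc5, the transactivator of MHC class I genes, had 0.119, 0.0415, 0.0825, 0.0825 and 0.231 CPM in B16F10 luc2 and 17, 18.7, 19, 23.6 and 17.1 CPM in D4M (log2 fold change -7.32, SE 0.32, adjusted p = 3.57e-17). Psmb8, a subunit of the immunoproteasome, had at most 3 counts in each B16F10 luc2 library and 8.14, 9.78, 7.61, 14.6 and 8.56 CPM in D4M, at least 80.3-fold lower (adjusted p = 2.38e-14). The MHC gene H2-T23 had 0.102 ± 0.0725 and 12.6 ± 3.18 CPM (log2 fold change -6.84, SE 0.62, adjusted p = 1.64e-10). Of their sequences, 13.7% of Psmb8 and 25.8% of H2-T23 are shared. Cd74, the invariant chain of MHC class II, did not pass the filter.

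Interferon response genes were lower in B16F10 luc2 for 26 of 28 tested (92.9%, against 38.9% of all tested genes). Their median log2 fold change was -3.48. Oasl2 had 0.0397, 0.207, 0.206, 0.124 and 0.0769 CPM in B16F10 luc2 and 54.8, 35.4, 42.4, 94 and 79.7 CPM in D4M (log2 fold change -8.75, SE 0.84, adjusted p = 4.55e-10), and Ifi44 had 0, 0.0417, 0.206, 0.0413 and 0 CPM and 20.6, 10.3, 16.4, 40.2 and 33.9 CPM (log2 fold change -8.76, SE 1.04, adjusted p = 2.13e-08). Irf7, a factor that induces interferon genes, had 0.595, 0.166, 0.165, 0.495 and 0.231 CPM in B16F10 luc2 and 37.2, 27.9, 28.6, 58.1 and 40.00 CPM in D4M (log2 fold change -6.91, SE 0.56, adjusted p = 1.46e-11). For all 3 genes D4M replicates 4 and 5 were the highest and replicate 2 the lowest of the line, and every D4M library exceeded every B16F10 luc2 library. Ifit2 was higher in B16F10 luc2 (50.7 ± 2.05 against 32.6 ± 2.8 CPM, log2 fold change 0.64, SE 0.08, adjusted p = 2.19e-08), and Mx1 had 0.356 ± 0.0998 and 0.558 ± 0.278 CPM (adjusted p = 0.18), with a call as lower without D4M replicate 5 (log2 fold change -0.82, adjusted p = 0.0228). Immune cell markers did not follow a common direction, since Lyz2 was at least 13-fold higher at 1.73 CPM (adjusted p = 3.7e-08) and Cd68 had a log2 fold change of -0.92 (adjusted p = 0.00893), with overlapping libraries. Of the sequences of Lyz2, 32.8% are shared.

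Of 6 tested checkpoint ligands, 4 were lower in B16F10 luc2 (66.7%, against 38.9% of all tested genes), 1 higher and 1 not called. The nectins, which bind the same receptors on T and NK cells, were opposed. Nectin2 had 85, 103, 112, 109.7 and 96.3 CPM in B16F10 luc2 and 12, 13.2, 16.7, 12.5 and 9.88 CPM in D4M (log2 fold change 2.99, SE 0.13, adjusted p = 2.11e-17), whereas Pvr had 45.6, 41.2, 41.6, 40.4 and 44.2 CPM and 162, 139, 141, 162 and 140.3 CPM (log2 fold change -1.80, SE 0.09, adjusted p = 9.45e-16). Cd276, the B7-H3 ligand, was lower in B16F10 luc2 (33.3 ± 3.77 against 186 ± 18.4 CPM, log2 fold change -2.49, SE 0.09, adjusted p = 1.23e-18), as was Lgals9 (log2 fold change -1.50, SE 0.22, adjusted p = 9.5e-07). Cd47, the signal that inhibits phagocytosis, was chosen after its values were seen (log2 fold change -1.45, SE 0.09, adjusted p = 4.91e-14). Cd274, PD-L1, had 2.87, 2.45, 3.22, 2.65 and 2.01 CPM in B16F10 luc2 and 3.15, 1.83, 2.25, 3.16 and 1.93 CPM in D4M (adjusted p = 0.799). Of the sequences, 10.5% of Cd276 and 14.6% of Cd274 are shared.

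Oxidative phosphorylation differed by the genome that encodes a subunit. Of 75 nuclear genes for the respiratory chain and ATP synthase, 69 were higher in B16F10 luc2 (92%, against 38.8% of all tested genes). A further 3 were lower and 3 not called, and the median log2 fold change was 0.63. The differences were small for most genes. Of the 75, 14 were higher by a log2 fold change of at least 1, where 18.1% of all tested genes were. Genes were assigned to complexes by symbol, so that Ndufa4 is counted with complex I, although its protein is now placed in complex IV. On this assignment, 32 of 36 complex I genes were higher (median 0.71). All of the 9 genes for complex III (0.60) and the 10 for complex IV (0.56) were higher. The same held for 3 of 4 genes for complex II (0.45) and 14 of 15 for ATP synthase (0.61). Ndufa4 stood out with 409.6, 391, 390.2, 385 and 349 CPM in B16F10 luc2 and 30.9, 35.8, 30.6, 32.9 and 31.1 CPM in D4M (log2 fold change 3.58, SE 0.06, adjusted p = 1.66e-25). Ndufa5 had 95.7 ± 3.66 and 25.6 ± 2.25 CPM (log2 fold change 1.90, SE 0.07, adjusted p = 4.24e-19), and Sdhb, the iron-sulfur subunit of complex II, had 359 ± 15 and 104 ± 6.73 CPM (log2 fold change 1.80, SE 0.05, adjusted p = 1.7e-20). Ndufa8 (log2 fold change -0.36, SE 0.05, adjusted p = 3.18e-07), Ndufa2 (-0.30) and Ndufs8 (-0.18) of complex I were lower. Sdha, the catalytic subunit of complex II, had 228 ± 4.92 and 236 ± 7.08 CPM (adjusted p = 0.243), and the sign of its log2 fold change turned to 0.11 when counts were scaled by library size only. It was called lower with DESeq2's size factors (log2 fold change -0.09, adjusted p = 0.0303) and with DESeq2's Wald test (-0.09, adjusted p = 0.00606).

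None of the 13 tested mitochondrial genes was higher, and 7 (53.8%, against 38.9% of all tested genes) were lower in B16F10 luc2 (median log2 fold change -0.41). These were 5 of 7 complex I genes and 2 of 3 complex IV genes. mt-Nd3 had 307, 281, 340.0, 305 and 298 CPM in B16F10 luc2 and 637, 751, 713, 812 and 741 CPM in D4M (log2 fold change -1.25, SE 0.14, adjusted p = 1.05e-08), mt-Nd2 had 1652 ± 249.8 and 3105 ± 579.9 CPM (log2 fold change -0.91, SE 0.19, adjusted p = 8.85e-05), and mt-Co3 had 2641 ± 450.2 and 4798 ± 730.1 CPM (log2 fold change -0.87, SE 0.16, adjusted p = 2.99e-05). mt-Atp6 had 6137 ± 1112 and 6674 ± 1062 CPM (adjusted p = 0.549). Sequences of mt-Nd3 (98.1%), mt-Co3 (99.9%), mt-Atp6 (99.5%) and mt-Nd2 (13.5%) are shared with other genes, so that their counts depend on how reads were divided. The 13 protein-coding mitochondrial genes together took 3.43% ± 0.546 (SD, n = 5) of the counts in B16F10 luc2 and 4.38% ± 0.760 in D4M. Their ranges, 2.59% to 3.98% and 3.55% to 5.58%, overlapped. The difference of -0.955 percentage points had p = 0.0397 in a two-sided exact permutation test over 252 arrangements, the smallest possible p being 0.00794. It was not past the threshold when B16F10 luc2 replicate 2, 4 or 5 or D4M replicate 1, 2, 3 or 4 was left out, with differences of -0.656 to -1.04 points among these.

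**Figure D4:**
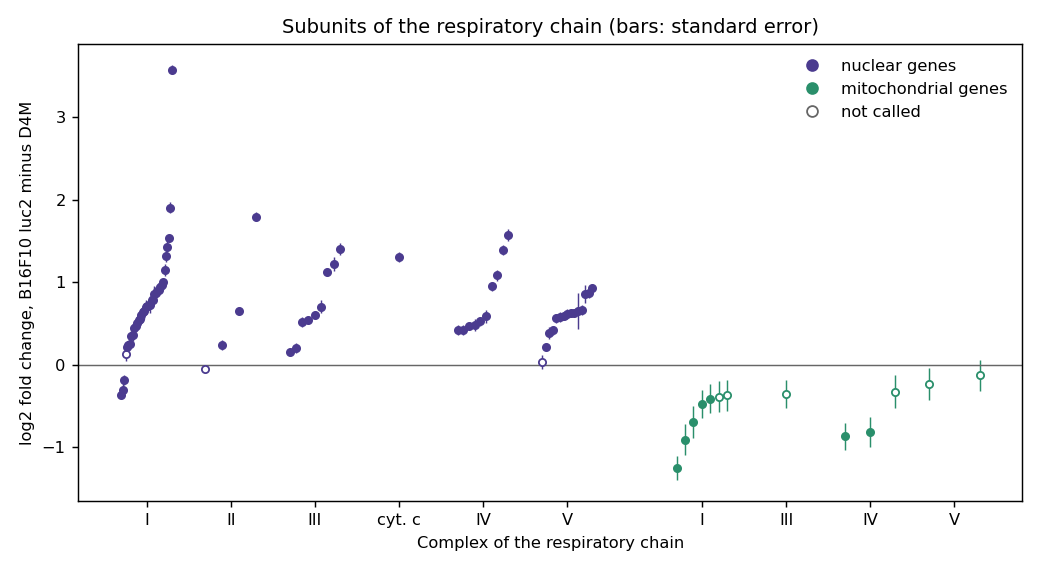
Log2 fold change (B16F10 luc2 minus D4M) of each tested subunit of the respiratory chain and ATP synthase, nuclear genes in purple and mitochondrial genes in green. Complexes were assigned by symbol, and Ndufa4 is drawn with complex I. Bars are standard errors, open symbols were not called. Most nuclear subunits lie above 0, with Ndufa4 highest at 3.58, and the mitochondrial subunits lie below 0.

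Regulators of mitochondrial biogenesis were higher in B16F10 luc2 for 5 of 6 tested (83.3%, against 38.8% of all tested genes). Their median log2 fold change was 0.78. Ppargc1a, the coactivator PGC-1 alpha, had 186, 166, 138, 192 and 144 CPM in B16F10 luc2 and 3.54, 2.62, 2.94, 2.13 and 3.15 CPM in D4M (log2 fold change 5.84, SE 0.37, adjusted p = 8.09e-14). Its paralog Ppargc1b was higher too (6.2 ± 0.806 against 1.61 ± 0.482 CPM, log2 fold change 1.97, SE 0.18, adjusted p = 2.42e-10). Tfam, which packages and transcribes mitochondrial DNA, had 64.9 ± 1.63 and 35 ± 2.55 CPM (log2 fold change 0.89, SE 0.05, adjusted p = 8.93e-15). Nrf1 (0.66) and Esrra (0.40), both named after their values were seen, had smaller log2 fold changes. Pprc1 had 91.7 ± 16.9 and 104 ± 6.21 CPM (adjusted p = 0.089) and was called lower without B16F10 luc2 replicate 1 (log2 fold change -0.31, adjusted p = 0.00499).

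Glycolysis and hypoxia genes differed in both directions, with 15 of 27 higher (55.6%) and 9 lower (33.3%) in B16F10 luc2. The median log2 fold change was 0.23, and 38.8% of all tested genes were higher and 38.9% lower. Ldhb, a lactate dehydrogenase subunit, had 158, 148, 151, 169.8 and 125 CPM in B16F10 luc2 and 4.64, 5.87, 5.74, 3.95 and 4.73 CPM in D4M (log2 fold change 4.91, SE 0.17, adjusted p = 2.48e-19), with 33.0% of its sequences shared. Hk1, a hexokinase, had 52.1, 53.6, 51.8, 49.1 and 54 CPM in B16F10 luc2 and 369.5, 315, 413, 328 and 337 CPM in D4M (log2 fold change -2.75, SE 0.08, adjusted p = 5.45e-21). The HIF targets were split, since Car9 (5.82 ± 0.722 against 0.202 ± 0.126 CPM, log2 fold change 4.92, SE 0.36, adjusted p = 2.54e-12) and Ndrg1 (log2 fold change 2.04, SE 0.32, adjusted p = 1.98e-06) were higher, while Egln3 (0.926 ± 0.283 against 132 ± 24 CPM, log2 fold change -7.16, SE 0.29, adjusted p = 1.22e-17) and Ankrd37 (log2 fold change -3.56, SE 0.21, adjusted p = 1.33e-14, 21.4% of its sequences shared) were lower. Gpi1 had 963 ± 42.4 and 898 ± 104 CPM (adjusted p = 0.106), with 21.6% shared, and was called higher without D4M replicate 3 (log2 fold change 0.16, adjusted p = 0.0079).

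Lipid synthesis genes were lower in B16F10 luc2 for 17 of 31 tested (54.8%, against 38.9% of all tested genes), higher for 5 and not called for 9. Their median log2 fold change was -0.24. Of the lower, 5 reached an absolute log2 fold change of 1, where 21.7% of all tested genes were lower by as much. Srebf1, which drives fatty acid synthesis, had 48.8, 54.4, 63.2, 62.6 and 54.3 CPM in B16F10 luc2 and 424, 465, 411, 419.6 and 390.5 CPM in D4M (log2 fold change -2.90, SE 0.08, adjusted p = 5.45e-21). Scd1, a fatty acid desaturase, had 79.1 ± 16.3 and 633 ± 82.6 CPM (log2 fold change -3.01, SE 0.13, adjusted p = 6.77e-17). The genes with the largest difference in the other direction were sterol enzymes, Ebp (log2 fold change 0.59, SE 0.08, adjusted p = 1.99e-07), Cyp51 (log2 fold change 0.40, SE 0.10, adjusted p = 0.000494) and Lss (log2 fold change 0.40, SE 0.12, adjusted p = 0.00303). Fasn had 579.7 ± 59.6 and 619 ± 87.7 CPM (adjusted p = 0.436). The media of the lines differ in serum, and their part in these values was not tested.

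Of 32 tested genes of S phase and mitosis, 17 were higher (53.1%, against 38.8% of all tested genes) and 5 lower in B16F10 luc2. Their median log2 fold change was 0.30. Where 18.1% of all tested genes were higher by a log2 fold change of at least 1, 3 of the 32 were. These were the replication genes Mcm2, with 652, 643, 632, 664 and 673 CPM in B16F10 luc2 and 177, 181, 183, 184 and 188 CPM in D4M (log2 fold change 1.84, SE 0.08, adjusted p = 2.36e-17), Cdt1 (log2 fold change 1.41, SE 0.09, adjusted p = 1.35e-13) and Rrm2 (log2 fold change 1.19, SE 0.14, adjusted p = 1.96e-08). Ccne2, cyclin E2, was lower (22.4 ± 3.17 against 62 ± 8.65 CPM, log2 fold change -1.47, SE 0.15, adjusted p = 1.62e-09), as were the mitotic genes Kif20a (log2 fold change -0.75, SE 0.17, adjusted p = 0.000336) and Cdc20 (log2 fold change -0.56, SE 0.20, adjusted p = 0.0116). Top2a had 551 ± 86 and 474 ± 35.9 CPM (adjusted p = 0.193). Of the sequences, 12.8% of Rrm2, 15.6% of Ccne2 and 26.7% each of Kif20a and Cdc20 are shared with other genes.

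Markers of Schwann cells, which share a neural crest origin with melanocytes, were split between the lines. Of 8 tested, 4 were higher (50%) and 3 lower (37.5%) in B16F10 luc2, against 38.8% and 38.9% of all tested genes. The sums of the 8 markers lay between 144 and 173 CPM in B16F10 luc2 and between 106 and 136 CPM in D4M. S100b had 84.4 ± 3.18 and 9.89 ± 2.25 CPM (log2 fold change 3.12, SE 0.15, adjusted p = 5.39e-16). Foxd3, a neural crest factor, had no count in B16F10 luc2 and 24, 24.7, 21.8, 21.6 and 18.2 CPM in D4M, at least 182-fold lower (adjusted p = 1.23e-15). Egr2 (log2 fold change -2.85, SE 0.57, adjusted p = 6.17e-05) and Pmp22 (log2 fold change -0.51, SE 0.11, adjusted p = 0.000179) were lower as well.

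Among protein-coding genes with a mean of at least 50 CPM in the higher line, several with large differences lay outside the lists. Igfbp3, which binds insulin-like growth factors, had at most 1 count in a B16F10 luc2 library and 5452, 4663, 5880.2, 5830.0 and 4657 CPM in D4M, at least 43679-fold lower (adjusted p = 1.13e-17). Crabp1, a binding protein for retinoic acid, had no count in B16F10 luc2 and 1090.1, 1145, 802, 1160.0 and 1227 CPM in D4M, at least 8948-fold lower (adjusted p = 1.57e-19). Grem1, an antagonist of bone morphogenetic proteins, had no count in B16F10 luc2 and 795, 884, 1040.1, 827 and 771 CPM in D4M, at least 7121-fold lower (adjusted p = 6.25e-20). Nrn1, neuritin, followed with 374 ± 57.8 CPM in D4M, at least 3088-fold lower (adjusted p = 1.34e-19), with 21.1% of its sequences shared. On the side of B16F10 luc2, Mcoln3, an endolysosomal channel, had 108, 117, 119, 112 and 110.3 CPM and no count in D4M, at least 851-fold higher (adjusted p = 3.49e-17). Tspan10 (431 ± 32.5 against 0.0827 ± 0.185 CPM), Pianp (498 ± 41.4 against 0.293 ± 0.582 CPM) and Dnaic1 (270.3 ± 30.4 against 0.267 ± 0.596 CPM) were also higher, and in each the highest D4M value was that of replicate 1. Their log2 fold changes of 13.39, 12.51 and 12.40 became 14.24, 13.48 and 13.56 without it. The genes that the study used as qPCR references also differed. Gak had a log2 fold change of -0.40 (adjusted p = 5.93e-10) and Srp72 one of -0.41 (adjusted p = 2.27e-07), with non-overlapping libraries in both.

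The 3 other lines were used only to place these values. For Mitf the line means were 434 CPM in RET, 416 in WT31 and 646 in HCmel12, against 692 in B16F10 luc2 and 6.38 in D4M. Sox10 had 547, 897 and 826 CPM in these lines. Fosl1 was at most 0.22 CPM in any of them. Prrx1 had 151 CPM in WT31 but 0.0618 in RET and 0.121 in HCmel12, and Ndufa4 had 379, 202 and 442 CPM. D4M thus held the extreme mean of the 5 lines for Mitf, Sox10, Fosl1, Prrx1 and Ndufa4. Fbln5 was extreme in B16F10 luc2 instead, with 434 CPM against 30.7 in RET, 17 in WT31 and 33.8 in HCmel12. Nectin2 likewise had 101 CPM in B16F10 luc2 and at most 40.02 CPM in the other lines. These orders are descriptions of line means without a test.

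The differences were not spread evenly over chromosomes. Of 638 tested protein-coding genes on chromosome 6, 69.0% were higher and 19.9% lower in B16F10 luc2, against 38.8% and 38.9% of all tested genes. Their median log2 fold change was 0.80, the highest of all chromosomes. Restricted to protein-coding genes of at least 10 CPM in both lines, the median of chromosome 6 was 0.75 (378 genes). Between single libraries of the lines this median ranged from 0.67 to 0.79. Against the 3 other lines, the median of these genes was 0.37 for B16F10 luc2 and -0.35 for D4M. In the same selection the medians were -0.41 for chromosome 14, -0.40 for chromosome 18, -0.38 for chromosome X and 0.32 for chromosome 12. Braf and Mitf lie on chromosome 6, as does the Hoxa cluster. The number of copies of a chromosome was not measured, and its part in these values was not tested.

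**Figure D5:**
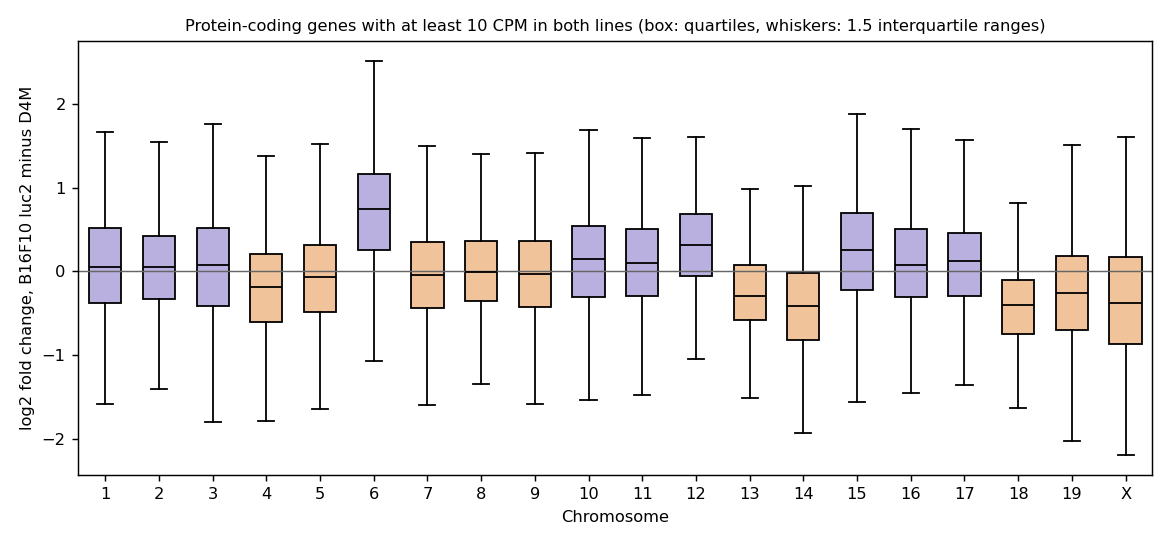
Log2 fold change (B16F10 luc2 minus D4M) by chromosome for protein-coding genes with at least 10 CPM in both lines. Boxes give the quartiles with the median, whiskers reach 1.5 times the interquartile range. The median of chromosome 6 is 0.75, and those of chromosomes 14, 18 and X are between -0.41 and -0.38.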

How the data were processed

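Total RNA of cultured cells was sequenced by BGI. Per the labels and the study's methods, the authors trimmed reads with Trim Galore 0.6.4, assigned them to GRCm38.p6 with kallisto and deposited estimated counts per gene, without normalization, and TPM, which are scaled by transcript length. The annotation release and the strand setting are not given in the sources used here. kallisto divides reads that match several genes, so 33.4% to 36.6% of the values above 0 in a library differed by more than 0.01 from a whole number. For named genes, the share of 31-base transcript sequences found in other genes was therefore counted, and shares above 10% are given in the text.

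Libraries were grouped by the cell line label. Symbols were found for 55144 of 55385 Ensembl identifiers with the version ignored. The filterByExpr function of edgeR 4.0.16, with lines as groups, left 15247 genes of the 25 libraries, which were scaled with TMM, transformed with voom and fitted with limma 3.58.1 in R 4.3.3 with 1 mean per line, so that all lines share the estimate of the spread. P-values were adjusted over all tested genes with the Benjamini-Hochberg method at 0.05, with no limit on the fold change. A gene with at most 3 counts in every library of a line was called silent there, and its fold was computed against 3 counts per library as a lower bound. Such limits take in the error of counting alone, because the reads carry no molecular identifiers. The TPM of D4M replicate 1 were not used here. Promoters are RefSeq sequences.

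The comparison, the 36 gene lists and the tests were chosen with earlier results of these data known. The text names every member of the lists for pigment synthesis, melanocyte factors and driver genes, and from other lists the 3 called members of largest change per direction and the most abundant member that was not called. It also names the 10 largest differences per direction among protein-coding genes of at least 50 CPM, and the study's qPCR genes. A few genes that the rule takes in are not reported here. Genes outside this rule were chosen after their values were seen. Alternatives were edgeR's quasi-likelihood test and the Wald test of DESeq2 1.42.0 on rounded counts, other scalings and filters, only the 10 libraries, a replicate block, log2 of TPM with a pseudocount of 1 or 0.1, stricter thresholds and leaving out each library. The fit was also run on simulated data with few changed genes and no silent ones. That run cannot show how the fit performs on these data, where most genes differed.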

Additional observations from a re-analysis of the deposited data

Results flagged for a closer look

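In 39 of 401 groups, each a named gene in the 5 libraries of 1 line, the highest or lowest library stood apart from the others by more than Dixon's critical value. Chance would flag about 1 in 20 groups if the values followed a normal distribution. Many CPM values here lie near 0, so the 39 groups cannot be set against that rate. D4M replicate 1 accounted for 16 of the 39 and was the highest library of its line in every case. The pigment genes among them were Tyrp1 (27.0 CPM), Dct (10.7), Pmel (8.78), Mlana (3.26), Slc45a2 (0.965) and Tyr (0.806), and Sox10 (2.07 CPM) and Mc1r (0.829 CPM) stood apart as well. The remaining genes were Alx1 (0.46 CPM), Dlx6 (0.185), Cdh1 (0.342), Kazn (0.138), Unc5c (0.827), Tspan10 (0.414), Pianp (1.33) and Dnaic1 (1.33). Every one of these levels was under those of the B16F10 luc2 libraries except Cdh1, which overlapped. The cause was not tested.

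The other libraries were flagged for 0 to 5 genes each. B16F10 luc2 replicate 1 was the highest of its line for Oca2 (9.05 CPM) and Spry1 (28.7 CPM) and the lowest for Itga7 (0.516 CPM) and Thbs3 (21.2 CPM). B16F10 luc2 replicate 3 was the highest for Ifi44 (0.206 CPM) and Itga2 (0.289 CPM) and the lowest for Col4a4 (8.04 CPM), and replicate 4 was the lowest for Ankrd37 (0.330 CPM). B16F10 luc2 replicate 5 was the highest for Cd68 (5.15 CPM), Cxcl10 (6.81 CPM) and Fasn (685 CPM) and the lowest for Flt4 (0.346 CPM). D4M replicate 2 was the highest for Egr2 (3.82 CPM), Ndufs8 (61.6 CPM), Pdgfra (78.4 CPM) and Twist1 (99.2 CPM) and the lowest for Angptl4 (2.62 CPM). D4M replicate 3 was the highest for Itga3 (685 CPM) and Lamb2 (42.6 CPM). D4M replicate 4 was the highest for mt-Nd2 (4118 CPM) and the lowest for Itga9 (0.533 CPM), Sdha (223 CPM) and Tbx2 (2.44 CPM).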

How the results depend on the processing

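With a limit of 1 on the absolute log2 fold change, 2764 genes were higher (18.1%) and 3305 lower (21.7%) in B16F10 luc2. Under this limit the lists kept 12 higher melanosome genes, 1 higher and 2 lower driver genes, 2 lower p53 targets, 14 higher nuclear and 1 lower mitochondrial respiratory chain gene, 2 higher mitochondrial regulators, 9 higher glycolysis genes, 5 lower lipid synthesis genes and 3 higher genes of S phase and mitosis. A filter of at least 10 counts in each library removes genes that are silent in a line by its construction. It left 1 pigment gene and 1 melanocyte receptor or ligand higher, 4 Hox genes higher, and as lower genes 6 dedifferentiation receptors, 5 mesenchymal factors, 2 patterning factors, 12 collagens and laminins, 6 matricellular genes, 10 proteases and inhibitors, 19 guidance molecules, 7 angiogenic genes, 4 cytokines and 10 genes of antigen presentation. With log2(TPM + 1) and with log2(TPM + 0.1), 6 p53 targets each were lower, and the cause was not tested. DESeq2's Wald test gave no p-value for 11 tested genes, among them Tyrp1, Dct and Pmel, and called the other 7 pigment genes. Scaling by library size only moved the median of all tested genes to 0.15 on the log2 scale, and 57.5% of the called genes were then higher, against 50.0% with TMM and 47.9% with DESeq2's size factors.

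The sign of Nf1 turned in TPM (0.31 with a pseudocount of 1, adjusted p = 0.00512, and 0.33 with 0.1, adjusted p = 0.00483), and that of Sdha turned with library size only (0.11, adjusted p = 0.00962), while Sdha was called lower with DESeq2's size factors (-0.09, adjusted p = 0.0303) and the Wald test (-0.09, adjusted p = 0.00606). Neither was called in the main test, and the cause was not tested. The difference in mitochondrial share ranged from -0.656 to -1.16 percentage points when single libraries were left out. Leaving out single libraries gave 5759 to 5885 higher and 5910 to 6015 lower genes. Among called named genes only Cdk4 and Batf lost their call in one of these fits, and 6 of 29 named genes without a call (Fos, Postn, Cdh1, Mx1, Pprc1 and Gpi1) gained one. In 13 of 197 the fold moved by more than 1.5 times without D4M replicate 1. Cdh6 did so without B16F10 luc2 replicate 3, and 2, 3 and 1 genes did so without D4M replicate 3, 4 and 5, with Tyrp1 shifted most each time. For genes with 0 counts in each sister library that HCmel12 expressed (12 genes), D4M replicate 1 reached 0.828% of the summed HCmel12 level. The same measure gave 0.296% for RET, 0.245% for B16F10 luc2 and 0.121% for WT31, and the source was not tested. With a mean of at least 10 CPM in at least 3 of the 4 other lines, runs of silent neighbours numbered 0 in B16F10 luc2 and 0 in D4M, and with at least 1 CPM there were 5 in D4M.

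With the replicate number as a block, 5935 genes were higher and 5969 lower. The numbers did not pair the libraries, as the correlations of same-numbered deviations lay between -0.08 and 0.05 and no library matched best with its own number. Line and medium cannot be told apart, and cultures of 1 line show only the spread between cultures. Batf and Cdkn2a were called although neither was over 3 counts in any library of the pair.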

Other observations

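Some genes were expressed in one line alone of the pair. Of protein-coding genes, 244 had at least 10 CPM in every D4M library and at most 3 counts in every B16F10 luc2 library, and 42 showed the reverse. Without D4M replicate 1 these numbers were 245 and 77. Of the 244 genes, 59 were silent in RET, WT31 and HCmel12 as well, and none of the 42 was. The 59 included Crabp1, the growth factor gene Ereg (237 CPM in D4M), the bone matrix gene Dmp1 (124), the mechanosensitive channel gene Piezo2 (95.8), the endothelial adhesion gene Sele (39.7) and the transcription factor genes Tbx20 (26.4) and Nkx2-2 (13.8). On the side of B16F10 luc2, the 42 genes included the endolysosomal channel gene Mcoln3 (113 CPM), the phospholipase gene Pla2g2e (69.7), angiotensinogen Agt (64.3), the forkhead gene Foxr2 (60.6), the muscle genes Trim63 (60.1) and Des (26.2) and the steroidogenic factor gene Nr5a1 (19.6). These examples were chosen after their values were seen.

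Neighbouring genes that were silent in one line but had a mean of at least 5 CPM in at least 3 of the 4 other lines were rare. In B16F10 luc2 28 of 9381 such genes were silent, and the neighbours among them were Pid1 with Dner (chr1:84036296-84696221, GRCm38.p6) and Jrk with Them6 (chr15:74702301-74724639). In D4M 39 of 9424 were silent, with Zfp992 and Zfp991 (chr4:146449023-147180579) and Soga3 and 9330159F19Rik (chr10:29143839-29230779) as neighbours. Whether these regions are deleted was not tested.

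In D4M replicate 1, genes that its 4 sister libraries hardly expressed (at most 3 counts in each) but another line expressed had a summed level of 0.415% of that in HCmel12 (52 genes), 0.349% of RET (60 genes), 0.274% of B16F10 luc2 (62 genes) and 0.114% of WT31 (63 genes). The other D4M libraries ranged from 0.0187% to 0.129% and the B16F10 luc2 libraries from 0.00919% to 0.0725%. The source of these counts was not tested.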
